A study of Mus musculus with 48 samples.

Results

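E11 progenitors were compared with E15 acinar cells, the earliest and the exocrine end of the pancreatic epithelium covered by the series. The members are 7 of the 48 arrays, the 4 arrays titled as Sox9 cells and the 3 titled as acinar cells. All 7 came from mouse pancreas of CD-1 background labelled wild type. Labels give the stages as E11.5 and E15.5. The E11 cells were sorted for GFP from the dorsal pancreas of embryos that carry a Sox9-eGFP reporter, after digestion with TrypLE. GFP outlasts the Sox9 transcript, so the gate can hold cells that have already left the progenitor state, and the methods describe their share as low. The E15 acinar cells were sorted by surface antigens as CD49f-high CD133+ CD24+ cells without Neurog3-eGFP, from pancreata of Neurog3-eGFP embryos digested with trypsin and EDTA. That gate removes cells that express the endocrine reporter, and the E11 gate does not. Stage, cell type, reporter line, dorsal against whole pancreas and dissociation differ between the groups together and cannot be told apart. The 3 arrays of E15 progenitors, the CD49f-low CD133+ CD24+ cells without Neurog3-eGFP of the same kind of pancreas, are given beside both groups. The labels do not say whether replicates came from separate animals, and the methods describe pooled pancreata, so each p-value measures spread between samples. In the main fit that spread was pooled within the populations of all 48 arrays, not these 7 alone.

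The early pancreatic bud is an epithelium of multipotent progenitors that give rise to acinar, duct and endocrine cells. Acinar cells differentiate at the tips of the branching epithelium and fill with zymogen granules, which store digestive enzymes as inactive precursors. Their transcription is driven by PTF1, a complex of PTF1A with an E protein and either RBPJ or RBPJL, which binds an E-box beside a TTTCCC box, together with the nuclear receptor NR5A2 and the secretory factor BHLHA15 (Mist1). A first wave of endocrine cells, rich in glucagon, leaves the epithelium at the progenitor stage. All values are RMA signals on the log2 scale, so a difference of 1 is a 2-fold change, and signals of different genes are not compared because each probe set has its own brightness.

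The sequences upstream of 5 genes that rose in acinar cells are shown because PTF1 and NR5A2 are known through the letters they bind. They are the 250 bases before the RefSeq start on GRCm38.p6, 5′ to 3′ on the strand of the gene. Capitals mark CANNTG (the E-box), the box TTTCCC on either strand (GGGAAA where it is reversed) and the core of NR5A2 sites, AAGGTCA, on either strand (reversed, it reads TGACCTT). Ctrb1, Cel and Cela1 are the called enzymes whose window holds an E-box within 20 bases of TTTCCC. Cela3b and Bhlha15 are the enzyme and the factor with the largest difference among genes in the RefSeq table. The windows lie at chr8:111691011-111691260 on the minus strand, chr2:28563404-28563653 on the minus strand, chr15:100687921-100688170 on the minus strand, chr4:137430521-137430770 on the minus strand and chr5:144190036-144190285 on the plus strand.
Ctrb1: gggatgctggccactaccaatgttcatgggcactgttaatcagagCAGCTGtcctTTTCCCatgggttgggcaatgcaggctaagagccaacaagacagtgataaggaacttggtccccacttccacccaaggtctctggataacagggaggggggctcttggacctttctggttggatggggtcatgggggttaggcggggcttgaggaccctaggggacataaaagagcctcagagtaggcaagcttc
Cel: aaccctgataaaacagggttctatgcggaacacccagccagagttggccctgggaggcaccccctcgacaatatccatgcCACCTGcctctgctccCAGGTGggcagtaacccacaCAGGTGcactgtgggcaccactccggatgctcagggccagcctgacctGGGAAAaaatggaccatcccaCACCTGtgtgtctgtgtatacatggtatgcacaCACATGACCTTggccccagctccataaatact
Cela1: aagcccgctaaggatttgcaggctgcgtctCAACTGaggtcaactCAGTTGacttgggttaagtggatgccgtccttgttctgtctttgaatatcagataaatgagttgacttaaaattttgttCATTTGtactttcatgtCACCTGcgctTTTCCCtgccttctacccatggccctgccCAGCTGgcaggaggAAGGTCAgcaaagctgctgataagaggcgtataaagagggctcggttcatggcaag
Cela3b: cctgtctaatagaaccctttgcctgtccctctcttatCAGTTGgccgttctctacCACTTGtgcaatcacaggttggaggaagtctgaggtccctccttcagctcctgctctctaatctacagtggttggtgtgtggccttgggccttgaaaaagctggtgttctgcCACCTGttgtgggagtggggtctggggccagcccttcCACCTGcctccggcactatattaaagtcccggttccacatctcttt
Bhlha15: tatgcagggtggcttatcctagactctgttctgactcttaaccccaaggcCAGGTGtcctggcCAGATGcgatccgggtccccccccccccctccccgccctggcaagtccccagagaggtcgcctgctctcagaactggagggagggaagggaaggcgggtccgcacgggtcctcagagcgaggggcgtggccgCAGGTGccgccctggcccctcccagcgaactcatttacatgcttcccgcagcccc

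In Ctrb1 the E-box CAGCTG begins 205 bases before the start and TTTCCC begins 195 bases before it. In Cela1 the E-box CACCTG begins at 109 bases before the start, TTTCCC at 99 and AAGGTCA at 56. In Cel, GGGAAA at 86 bases before the start precedes the E-box CACCTG at 65, and TGACCTT at 28 shares its first letters with the E-box CACATG at 32. The windows of Cela3b and Bhlha15 hold 4 and 3 E-boxes and neither TTTCCC nor AAGGTCA in these letters. The table gave 25 windows for 23 of the 29 enzyme genes listed, and 5 of the 25 (20%) held an E-box within 20 bases of TTTCCC, against 3.81% of all 32841 windows searched. AAGGTCA stood in 4 of the 25 enzyme windows (16%) and in 4.08% of all windows. An E-box by itself was common, in 80% of the enzyme windows and 66.2% of all windows, and TTTCCC stood in 32% and 22%. Of 13 windows of 9 acinar transcription factor genes, none held the E-box and TTTCCC together, and 1 held AAGGTCA. Of 20 windows of 14 granule and secretory accessory genes, 2 (10%) held the pair and none held AAGGTCA. These are letter matches in short windows, with no test, and they do not show binding.

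The arrays of each group resembled each other, with Pearson correlations across the probes tested of 0.992 to 0.996 among the E11 arrays and 0.983 to 0.985 among the acinar arrays. Among the 32078 probes tested, 6099 (19.0%) passed an adjusted p of 0.05 with at least a 2-fold difference, here called. Of these, 2390 were higher and 3709 lower in acinar cells. The array medians were lower in acinar cells by 0.15 on the log2 scale, and after each array was centred on its median the split became 3066 higher and 2983 lower. For single genes, the brightest probe stood for each of 14485 genes, of which 1220 rose (8.42%) and 1728 fell (11.9%) from E11 progenitors to acinar cells. The median difference over all genes was -0.02, or 0.13 after centring, and 60.2% of the genes had no overlap between the 4 and the 3 arrays. Sox9, Ptf1a and Cela3b were read in all 13 populations as a check of the labels. Cela3b, a pancreatic elastase, had 5.18 ± 0.64 (SD, n = 4) in E11 progenitors, the lowest mean of the 13 populations, and 13.91 ± 0.12 (n = 3) in acinar cells, where adult duct and adult beta cell arrays read 14.46 and 14.19. Ptf1a was highest of all populations in acinar cells (12.68 ± 0.19), with E11 progenitors ranked next at 10.93 ± 0.20. Sox9 read 12.51 ± 0.08 in E11 progenitors and 11.51 ± 0.12 in acinar cells, the fourth highest mean of the 13, so its transcript was measured there too. A signal of 100 on the linear scale, 6.64 on the log2 scale, is taken as the floor, and differences from means at or under it have no exact size.

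The digestive enzymes had the highest median of the 30 lists described here. A list of 4 sex-linked genes, left out of the 30, had no call by limma or by the methods' t-test and none at an unadjusted p under 0.05. Of 18 enzyme genes tested, 14 were higher in acinar cells by limma and none was lower, where 8.42% of all genes rose. Their median difference was 4.93, and all 18 had no overlap between groups, as had 60.2% of all genes. Cela3b read 4.70, 5.85, 4.58 and 5.60 in the E11 arrays and 14.00, 13.77 and 13.95 in the acinar arrays, a difference of 8.72 (SE 0.88, adjusted p 1.5e-10). All 4 E11 arrays lay under the floor and all acinar arrays near the top of the scale. Rnase1, the pancreatic ribonuclease, read 3.69, 4.96, 4.39 and 3.98 at E11 and 12.80, 13.03 and 12.90 in acinar cells, a difference of 8.65 (SE 1.00, adjusted p 3.5e-09). Cpb1, which cleaves basic C-terminal residues, read 3.62, 3.97, 3.50 and 3.82 against 12.38, 12.25 and 12.27, a difference of 8.57 (SE 1.28, adjusted p 8.1e-07). Neither gene had an E11 array above the floor. Prss3, a trypsinogen, differed by 8.28, Cela2a, another elastase, by 7.12, Ctrc, chymotrypsin C, by 5.89 and Klk1, tissue kallikrein, by 5.40. Klk1 rests on 1 choice of probe set: with the probe set brightest over the 7 arrays it differed by 0.69 and was not called, and with the mean of its probe sets by 3.34. Probe sets of trypsinogens, amylases and kallikreins may also read near-identical copies, and 10 of the 29 enzymes listed had no probe set of their own. Of the 19 that had one, 18 were tested.

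A second group of enzymes already had signal at E11. Ctrb1, chymotrypsinogen B, read 8.26, 8.26, 7.89 and 8.93 in E11 progenitors and 14.68, 14.77 and 14.77 in acinar cells, 6.40 higher (SE 0.80, adjusted p 2.0e-08). Cel, the bile salt-dependent lipase, read 7.06 to 7.86 and then 13.20 to 13.37, 5.72 higher. Pnliprp1, a lipase-related protein, went from a mean of 10.54 to 14.30, and Cela1 from 10.22 to 13.67. Cpa1, carboxypeptidase A1, a marker of tip progenitors, read 13.09, 13.18, 13.14 and 13.19 at E11 and 14.10, 14.11 and 14.02 in acinar cells. The Cpa1 arrays did not overlap, but the difference of 0.93 was under 2-fold, and its limma adjusted p was 0.45 with the spread of all 48 arrays in the fit. Clps, colipase, read 12.31 to 12.47 against 13.86 to 13.95 and differed by 1.55 (adjusted p 0.15). Ctrl, the chymotrypsin-like protease, read 7.83 to 8.18 against 8.87 to 9.73 and differed by 1.34 (adjusted p 0.21). A limma fit on the 7 arrays alone called both, with adjusted p of 2.6e-06 for Clps and 0.00059 for Ctrl. Pla2g1b, the pancreatic phospholipase, was near the floor in both groups and differed by 0.36. Amy1, an amylase, read 7.39 to 7.98 and then 9.32 to 9.58, 1.80 higher.

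**Figure D1:**
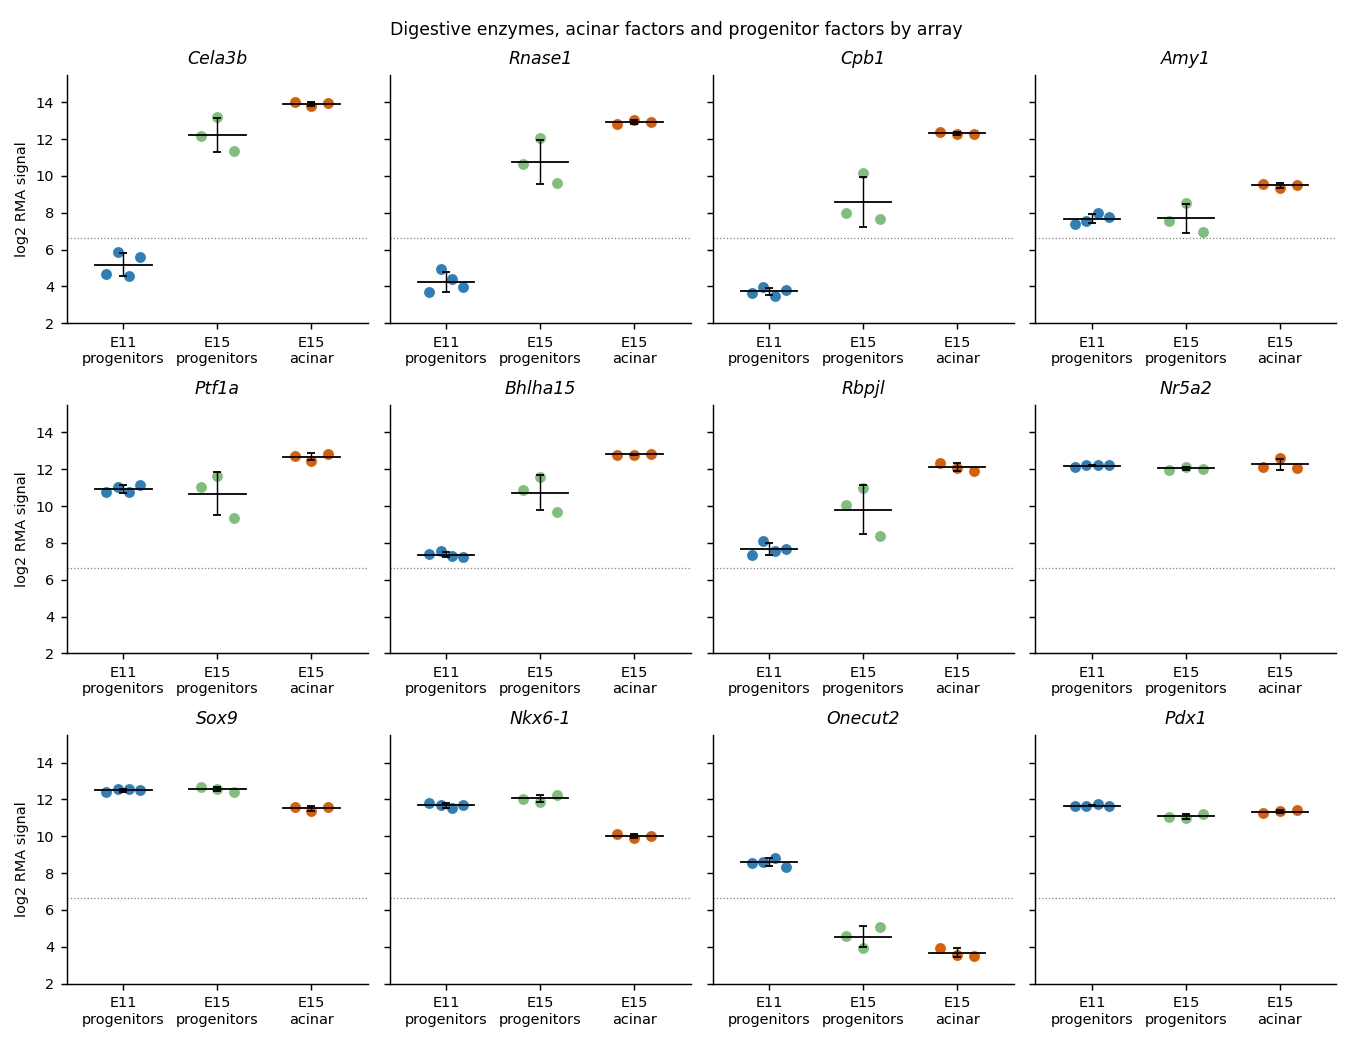
RMA signal (log2) of 12 genes in each E11 progenitor, E15 progenitor and E15 acinar array, with the mean as a line, the SD as a bar and the floor of 6.64 as a dotted line. Cela3b, Rnase1 and Cpb1 go from under the floor at E11 to above 12 in acinar cells, the E11 and acinar means of Nr5a2 and Pdx1 lie within 0.33 of each other, and the E15 progenitor arrays spread widely for the enzymes.

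E15 progenitors already carried many of the enzyme signals, and unevenly. Cela3b read 12.15, 13.19 and 11.33 in their 3 arrays, Cpb1 7.99, 10.14 and 7.67, and Ctrb1 14.36, 14.57 and 13.99. For each of these the array of replicate 2 was the highest and that of replicate 3 the lowest, and all E15 progenitor arrays lay above all E11 arrays. Of the 18 enzymes, 9 were called higher in E15 progenitors than in E11 progenitors (6.25% of all genes), and 1, Amy1, was called higher in acinar cells than in E15 progenitors (4.63% of all genes). The list median of acinar cells minus E15 progenitors was 1.75, so the few calls do not show that levels were equal. The comparisons share arrays, so they are given side by side only. Sorted cells are bulk samples, so fewer acinar cells and less enzyme RNA per cell cannot be told apart.

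Genes that process, pack or control the enzymes rose with them. Of 20 genes of the granule and secretory accessory list, 15 were higher and 1, Bex2, was lower by -1.05. The list median was 3.06, where 8.42% of all genes rose and 11.9% fell. Genes named only to complete a small count, as Bex2 is, were chosen after their values were seen. Erp27, a protein of the ER lumen, read 5.45, 5.28, 4.60 and 4.69 at E11 and 12.84, 12.61 and 12.77 in acinar cells, 7.74 higher (SE 0.93, adjusted p 8.9e-09). Serpini2, a serine protease inhibitor of the pancreas, was 7.60 higher and Pdia2, the pancreatic protein disulfide isomerase, 7.37 higher. In these 3 genes each E11 array was under the floor. Zg16, a zymogen granule lectin, was 5.81 higher, with acinar arrays of 12.13, 11.57 and 10.88. Spink1, the trypsin inhibitor, was already above the floor in E11 progenitors (8.80 to 9.05) and read 13.61 to 13.63 in acinar cells. Rab27b, a small GTPase of granule exocytosis, was 4.32 higher (SE 0.49, adjusted p 2.4e-09), with 1 acinar array at 10.36 and the others at 11.71 and 11.67. Vamp8, a granule SNARE, differed by 0.33 and Vamp2 by -0.19, both under 2-fold.

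Of the 11 acinar transcription factors tested, 6 rose and none fell, with a median of 1.44, where 8.42% of all genes rose. Bhlha15 read 7.39, 7.56, 7.27 and 7.23 in E11 progenitors and 12.79, 12.75 and 12.85 in acinar cells, a difference of 5.43 (SE 0.40, adjusted p 4.3e-14). Rbpjl, the acinar-specific subunit of PTF1, read 7.34, 8.10, 7.54 and 7.67 against 12.36, 12.04 and 11.93, a difference of 4.45 (SE 0.50, adjusted p 1.9e-09). Both were low but above the floor in every E11 array, and no array of one group overlapped the other. Ptf1a itself read 10.74, 11.05, 10.79 and 11.14 at E11 and 12.74, 12.46 and 12.83 in acinar cells, 1.75 higher (SE 0.49, adjusted p 0.0043). Nr0b2, a nuclear receptor that lacks a DNA-binding domain, was 1.68 higher, Gata4 1.53 higher and Xbp1, a driver of secretory capacity, 1.44 higher. These 6 factors were also called higher in acinar cells than in E15 progenitors, Bhlha15 by 2.08, Rbpjl by 2.32, Ptf1a by 2.00, Nr0b2 by 1.13, Gata4 by 1.96 and Xbp1 by 1.08. Of the 6, only Bhlha15 and Rbpjl were called higher in E15 progenitors than in E11 progenitors, by 3.35 and 2.13.

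The other subunits and partners stayed within 2-fold. Nr5a2 read 12.14, 12.21, 12.21 and 12.23 in E11 progenitors and 12.12, 12.59 and 12.07 in acinar cells, a difference of 0.06 (SE 0.34, adjusted p 0.91). Rbpj, the general partner of PTF1A and of Notch, differed by -0.27, the E proteins Tcf3 and Tcf12 by 0.13 and -0.22, and Gata6 by 0.08. None was called, which does not show that their levels were equal.

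**Figure D2:**
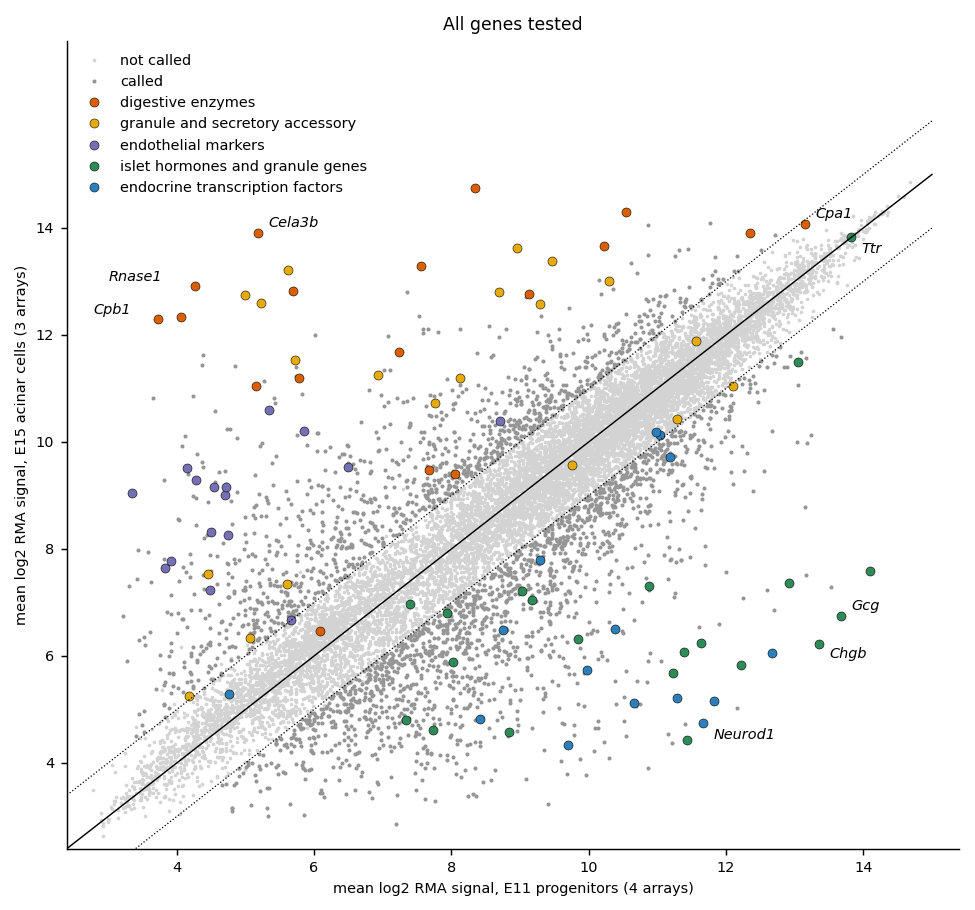
Mean RMA signal (log2) of each gene tested in E11 progenitors (x axis) and E15 acinar cells (y axis), with called genes in dark grey, 5 gene lists in colour, the diagonal and dotted lines at a 2-fold difference. Enzymes and accessory genes lie far above the diagonal, endothelial markers rise from low E11 signals, and hormones and endocrine factors lie far below it.

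Among 29 progenitor and trunk transcription factors, 11 fell and 2 rose, with a median of -0.59. The 11 include Sox9, on whose reporter the E11 cells were sorted, so its difference is no finding. Over all genes, 11.9% fell and 8.42% rose. Onecut2 read 8.55, 8.63, 8.84 and 8.31 at E11 and 3.94, 3.57 and 3.52 in acinar cells, a fall of 4.90 (SE 0.42, adjusted p 2.3e-12). Sall4, a zinc finger factor of early embryonic cells, read 12.25, 12.60, 12.45 and 12.28 against 9.00, 9.19 and 9.05, a difference of -3.32 (SE 0.19, adjusted p 2.4e-17). Sox11 went from 13.13, 13.24, 13.33 and 13.27 to 9.73, 10.46 and 10.20, a difference of -3.11. For all 3 genes the groups lay far apart, and acinar Onecut2 was under the floor. Mnx1, needed for the dorsal bud, differed by -3.30 and Foxa1, a pioneer factor, by -2.91, both with acinar means under the floor. These 5 were also called lower in E15 progenitors than in E11 progenitors, Onecut2 by -4.05, Mnx1 by -3.83, Foxa1 by -2.71, Sox11 by -2.40 and Sall4 by -1.75.

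Further trunk factors were lower in acinar cells than at E11. Nkx6-1, which keeps the trunk and endocrine fate, read 11.81, 11.69, 11.53 and 11.68 in E11 progenitors, 12.04, 11.87 and 12.25 in E15 progenitors and 10.12, 9.88 and 9.99 in acinar cells. Acinar Nkx6-1 differed by -1.68 from E11 (SE 0.19, adjusted p 3.2e-09) and by -2.06 from E15 progenitors. Hhex differed by -1.40 (adjusted p 0.028) and Mycn by -1.34 (adjusted p 0.039). Mycn was not called when any 1 of the 7 arrays was left out, at -1.47 to -1.13, nor after median centring, at -1.19. Hhex was not called without replicate 4 of the E11 arrays or without any 1 of the acinar arrays, at -1.42 to -1.34. Sox9, on whose reporter the E11 cells were sorted, differed by -1.00, at the 2-fold limit, and was not called after median centring, at -0.85, nor without replicate 2 or 3 of the E11 arrays or replicate 2 of the acinar arrays, at -0.99, -0.98 and -0.93, nor with the mean of its probe sets, at -0.89. Sox4 differed by -1.30, but 4 of its 6 probe sets were not called, and it was -0.04 with the probe set brightest over the 7 arrays. Prox1, a homeobox factor of the early bud, differed by -1.16. From E15 progenitors, Hhex, Mycn, Sox4 and Sox9 were called lower by -1.82, -1.72, -1.28 and -1.05, and Prox1 differed by -0.95 and was not called. Pdx1, required for the whole organ, read 11.65, 11.63, 11.73 and 11.67 at E11 and 11.24, 11.37 and 11.41 in acinar cells, a difference of -0.33 (adjusted p 0.19). Hnf4a, Foxa2 and Foxa3 differed by 0.37, -0.16 and 0.52, all under 2-fold. The 2 that rose were Myc, by 1.61 (adjusted p 0.0033), and Sox17, by 3.85, a factor that is also on the endothelial list, or by 2.48 with the mean of its probe sets.

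Endocrine lists had the lowest medians of the 30. Of 15 endocrine transcription factors, 12 were lower in acinar cells and none higher, with a median of -3.89. Neurog3, whose reporter was used in the acinar sort, is among the 12. Of 21 hormone and granule genes, 19 were lower, with a median of -3.56, where 11.9% of all genes fell. Gcg, the glucagon precursor, read 13.57, 13.65, 13.84 and 13.68 in E11 progenitors and 7.30, 9.04 and 3.91 in acinar cells, a difference of -6.93 (SE 0.62, adjusted p 7.5e-12). The E11 arrays agreed closely, and the acinar arrays differed from each other by more than 5. Pyy, peptide YY, read 14.12, 14.06, 14.16 and 14.06 against 8.01, 7.83 and 6.92, a difference of -6.51. Chgb, a granin of dense core granules, read 13.39, 13.34, 13.38 and 13.31 against 5.95, 6.58 and 6.13, a difference of -7.13 (SE 0.38, adjusted p 2.0e-18). Neurod1, a target of Neurog3, read 11.57, 11.56, 12.04 and 11.52 against 4.24, 4.88 and 5.14, a difference of -6.92. In these genes no acinar array came within 4 of any E11 array.

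Isl1 differed by -6.62, Myt1 by -6.66, Pax6 by -6.07, Irx2 by -5.53 and St18 by -5.37, all factors of endocrine cells. With the mean of all probe sets of a gene, Myt1 and Pax6 differed by -3.76 and -2.52, and were still called. Iapp, amylin, differed by -5.56, and the granule genes Resp18 and Scg5 by -6.99 and -6.38. Of the 15 genes with the largest fall, 8 were on these lists. The remaining ones were Sphkap, an anchoring protein of protein kinase A (-7.14), Irs4, an insulin receptor substrate (-6.97, or -3.34 with the mean of its probe sets), Gjd2, the gap junction protein connexin-36 (-6.84), Baiap3 (-6.69), Disp2 (-6.61), Slc38a5, a glutamine transporter (-6.25), and Zcchc18 (-6.21). Neurog3 had 9.35, 9.19, 9.28 and 9.34 at E11 and 8.14, 7.42 and 7.82 in acinar cells, and since its reporter was used to remove cells from the acinar sort, its difference of -1.50 is no finding. Sst, somatostatin, differed by -0.40 and Ttr, transthyretin, by 0.01, and neither was called.

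Endocrine genes were also low in E15 progenitors. Gcg read 7.99, 7.56 and 9.30 there, Neurod1 6.34, 7.98 and 6.90, and Chgb 6.71, 9.76 and 8.24. Both E15 sorts left out cells with Neurog3-eGFP, and the methods state that this GFP persists in hormone-positive descendants. How far the gates set the low E15 values of endocrine genes was not tested. Of the 21 hormone and granule genes, 19 were lower in E15 progenitors than in E11 progenitors, where 7.32% of all genes fell, and 3 were lower in acinar cells than in E15 progenitors, where 7.05% fell. Neurog3 read 11.64, 11.43 and 11.98 in E15 progenitors, above the other two groups, but its reporter was used in that sort too. Which share of the E11 signal came from cells that had left the progenitor state under lasting GFP was not tested.

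**Figure D3:**
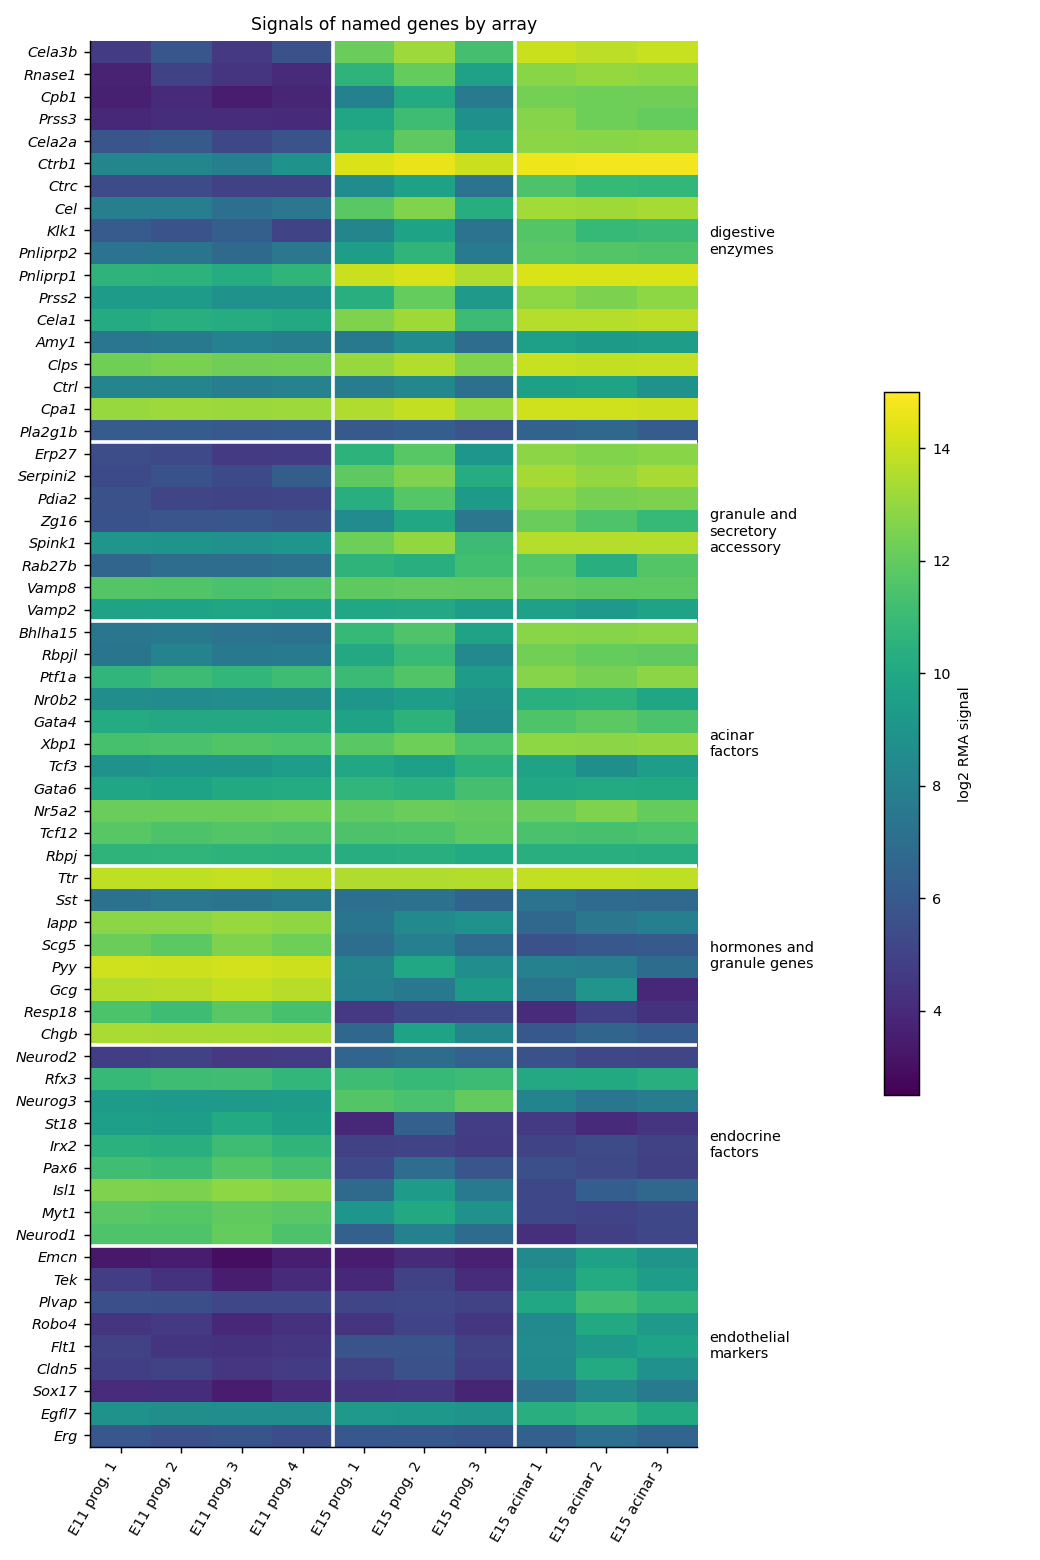
RMA signal (log2, colour) of named genes of 6 lists (rows) in the 4 E11 progenitor, 3 E15 progenitor and 3 E15 acinar arrays (columns). The enzyme block brightens from left to right, the hormone and endocrine factor blocks are bright in the E11 arrays alone apart from Ttr, Rfx3, Neurog3, Sst and Neurod2, and the endothelial block is brightest in the acinar arrays.

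Part of the secretory pathway rose. Of 40 genes for ER translocation, folding and the unfolded protein response, 13 rose and 1, the stress factor Ddit3, fell by 1.04. The median was 0.74 and 26 were not called, where 8.42% of all genes rose and 11.9% fell. Edem2, which sorts misfolded glycoproteins for degradation, read 8.44, 8.37, 8.42 and 8.27 in E11 progenitors and 11.77, 11.58 and 11.65 in acinar cells, a difference of 3.29 (SE 0.23, adjusted p 7.6e-15). Edem1, of the same family, was 2.87 higher and Herpud1, of the same degradation route, 2.03 higher. For all 3 genes every acinar array lay above every E11 array. Pdia4, a protein disulfide isomerase, was 3.18 higher and Sdf2l1, an ER chaperone cofactor, 2.51 higher, but replicate 2 of the acinar arrays stood lower than the others for each, at 8.75 against 11.82 and 12.03 for Pdia4 and at 9.89 against 11.42 and 11.70 for Sdf2l1. Hspa5, the main ER chaperone, read 13.44 to 13.60 at E11 and 13.42 to 13.63 in acinar cells by its brightest probe, a difference of 0.04 near the top of the scale, and 1 of its 3 probes was called higher. Atf4, which drives amino acid genes under stress, differed by -0.09.

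Of 36 COPII, Golgi and vesicle genes, 7 rose, none fell and 29 were not called, with a median of 0.46. Over all genes, 8.42% rose and 11.9% fell. Creb3l1, a membrane-bound factor that activates secretory genes, read 6.24, 6.40, 5.99 and 6.29 against 10.17, 9.60 and 9.95, a difference of 3.68 (SE 0.29, adjusted p 1.5e-13). Kdelr3, which returns ER proteins from the Golgi, was 3.22 higher, and the COPII coat gene Sec24d 2.17 higher. Sec24a rose by 1.30 (adjusted p 0.014) and was not called without replicate 1 or 3 of the acinar arrays, at 1.25 and 1.14. Of 38 genes for amino acid supply, 11 rose and 3 fell, Slc38a5, Sesn2 (-1.55) and Slc7a2 (-1.42). Slc38a3, a glutamine transporter, read 7.05, 7.07, 6.80 and 7.14 and then 11.38, 11.42 and 11.21, a difference of 4.32 (SE 0.38, adjusted p 3.3e-12). Cbs and Cth, the enzymes that make cysteine from homocysteine, were 3.62 and 1.74 higher, and Asns, asparagine synthetase, 2.45 higher. Slc38a5, of the same transporter family as Slc38a3, fell by 6.25, from 13.39, 13.48, 13.68 and 13.56 to 7.03, 7.56 and 7.25.

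Replication and mitosis genes stayed within 2-fold. None of 31 replication genes and none of 29 mitosis genes was called by limma, their medians were 0.24 and 0.21, and no member differed by more than 0.80. At an unadjusted p under 0.05, 4 replication genes were higher and 2 lower, and 9 mitosis genes were higher and 1 lower. The methods' t-test on the 7 arrays gave no call at 2-fold either, and without the 2-fold limit it gave 11 and 15 higher and 1 lower in each list. Mki67, the proliferation antigen, read 12.89, 12.71, 12.57 and 12.59 at E11 and 12.59, 12.80 and 12.67 in acinar cells. Those arrays overlapped. Among inhibitors and D cyclins, Ccnd1, cyclin D1, was lower by -1.49 (adjusted p 1.7e-08), Cdkn1c, the imprinted inhibitor p57, by -1.68 and Cdkn2b by -1.97, while Cdkn2c rose by 2.39 and Cdk6 by 1.46. Ccnd2 and Ccnd3 differed by 0.10 and -0.19.

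Of 22 Notch genes, 4 rose and 4 fell, where 8.42% of all genes rose and 11.9% fell. Hey1, a Notch target, read 11.06, 10.77, 10.56 and 10.85 at E11 and 7.32, 7.83 and 8.09 in acinar cells, a difference of -3.07 (SE 0.37, adjusted p 9.4e-09). Notch3 differed by -2.69 and Dll3, an inhibitory ligand, by -1.92. Notch2 differed by -1.12. Lfng, the Fringe enzyme that modifies Notch, was 2.26 higher, the target Heyl 1.98, the ligand Dll1 1.20 and Notch4, known from vessels, 1.09. Hes1 differed by -0.32 and Notch1 by -0.08. Of 19 genes of FGF signalling, 7 fell and none rose, with a median of -0.84. Etv4, a target of FGF signals, read 8.26, 7.90, 7.58 and 7.57 against 5.53, 5.97 and 5.67, a difference of -2.11 (SE 0.20, adjusted p 2.8e-11), or -4.13 with the probe set of Etv4 that is brightest over the 7 arrays. The feedback phosphatases Dusp4 and Dusp6 differed by -2.07 and -1.41, Spry2 by -1.76 and the receptor Fgfr4 by -2.02. Dusp6 was not called without replicate 1 of the acinar arrays, at -1.24.

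Of 27 Wnt genes, 7 fell and 3 rose, where 11.9% of all genes fell and 8.42% rose. The inhibitors Sfrp5, Dkk3 and Sfrp1 differed by -2.36 (-1.27 with the mean of the probe sets of Sfrp5), -2.05 and -2.03, the ligand Wnt7b by -2.18 and the receptor Fzd2 by -1.63, while Lgr5, a receptor for R-spondins, rose by 1.61 with E11 arrays under the floor. The targets Sp5 and Axin2 rose by 1.37 and 1.03. Of 30 genes of TGF-beta, BMP and Hedgehog signalling, 3 rose and 3 fell, shares near those of all genes (8.42% and 11.9%). Acvr2b, an activin receptor, differed by -2.08, Gli3 by -1.97 and Bmp4 by -1.67. Bmpr1b rose by 1.73. Tgfb1 differed by 1.37 and Tgfbr2 by 1.12, and without replicate 2 of the acinar arrays neither was called, at 0.91 and 0.88. Tgfbr2 was also not called without replicate 3 of the E11 or of the acinar arrays, at 1.06 and 1.09, nor with the mean of its probe sets, at 0.77. Ctnnb1 differed by 0.06.

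Of 21 oncofetal and imprinted genes, 7 fell in acinar cells, 1 rose and 13 were not called, with a median of -0.59, where 11.9% of all genes fell. Lin28a, the RNA-binding protein that blocks let-7 maturation, read 9.07, 9.32, 9.04 and 8.91 in E11 progenitors and 3.75, 3.48 and 3.88 in acinar cells, a difference of -5.38 (SE 0.29, adjusted p 3.7e-18). Its acinar arrays were far under the floor. Peg10, an imprinted retrotransposon-derived gene, read 11.95, 12.37, 13.10 and 12.94 against 6.28, 7.66 and 7.75, a difference of -5.36. Igf2bp1, an RNA-binding protein of fetal tissue, differed by -2.07 and the imprinted Zim1 and Ndn by -2.80 and -1.73. Plagl1, an imprinted zinc finger factor, rose by 2.25. Igf2 and Grb10 differed by -0.31 and -0.23. Lin28a, Peg10, Igf2bp1 and Zim1 were also called lower in E15 progenitors than in E11 progenitors, by -4.85, -6.15, -1.83 and -2.03.

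In the epithelium, 4 of 38 junction and polarity genes rose and 3 fell, shares near those of all genes (8.42% and 11.9%). Cdh2, N-cadherin, read 11.49, 11.14, 11.22 and 11.11 at E11 and 6.51, 7.71 and 7.12 in acinar cells, a difference of -4.13 (SE 0.26, adjusted p 2.5e-16). The claudins Cldn1 and Cldn23 differed by -3.30 and -2.63, Cldn8 rose by 2.16, Vil1, villin of the apical brush, by 2.15, the gap junction gene Gjb2 by 1.66 and Tjp3 by 1.29. Of 20 duct markers, 7 rose and 1, the keratin Krt7, fell by 1.40. The rises were led by Aqp1, a water channel (3.50), Anxa3 (3.17) and Tff2, a trefoil peptide (2.65), and 12 of the 20 were called higher in E15 progenitors than in E11 progenitors. Pkhd1, the fibrocystin of duct cilia, differed by -0.15 from E11 but by -2.49 from E15 progenitors. Of 23 glycolysis and glucose transport genes, 7 fell and 2 rose, where 11.9% of all genes fell and 8.42% rose. The risers were Pdk1, by 1.37, and Pfkp, by 1.19. Slc2a2, the GLUT2 transporter, read 11.71, 11.67, 11.70 and 11.74 in E11 progenitors, 11.39, 11.13 and 11.62 in E15 progenitors and 8.29, 7.27 and 7.56 in acinar cells, a difference from E11 of -4.00 (SE 0.25, adjusted p 2.2e-16). Slc2a3, the GLUT3 transporter, differed by -3.38 and the enolase Eno2 by -2.41. Of 19 cholesterol synthesis genes, Insig1 and Idi1 rose, by 1.59 and 1.04, and none fell, a share near that of all genes (8.42%). Idi1 was not called without replicate 1 of the E11 arrays, at 0.97, with the probe set brightest over the 7 arrays, at 0.43, or with the mean of its probe sets, at 0.73.

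**Figure D4:**
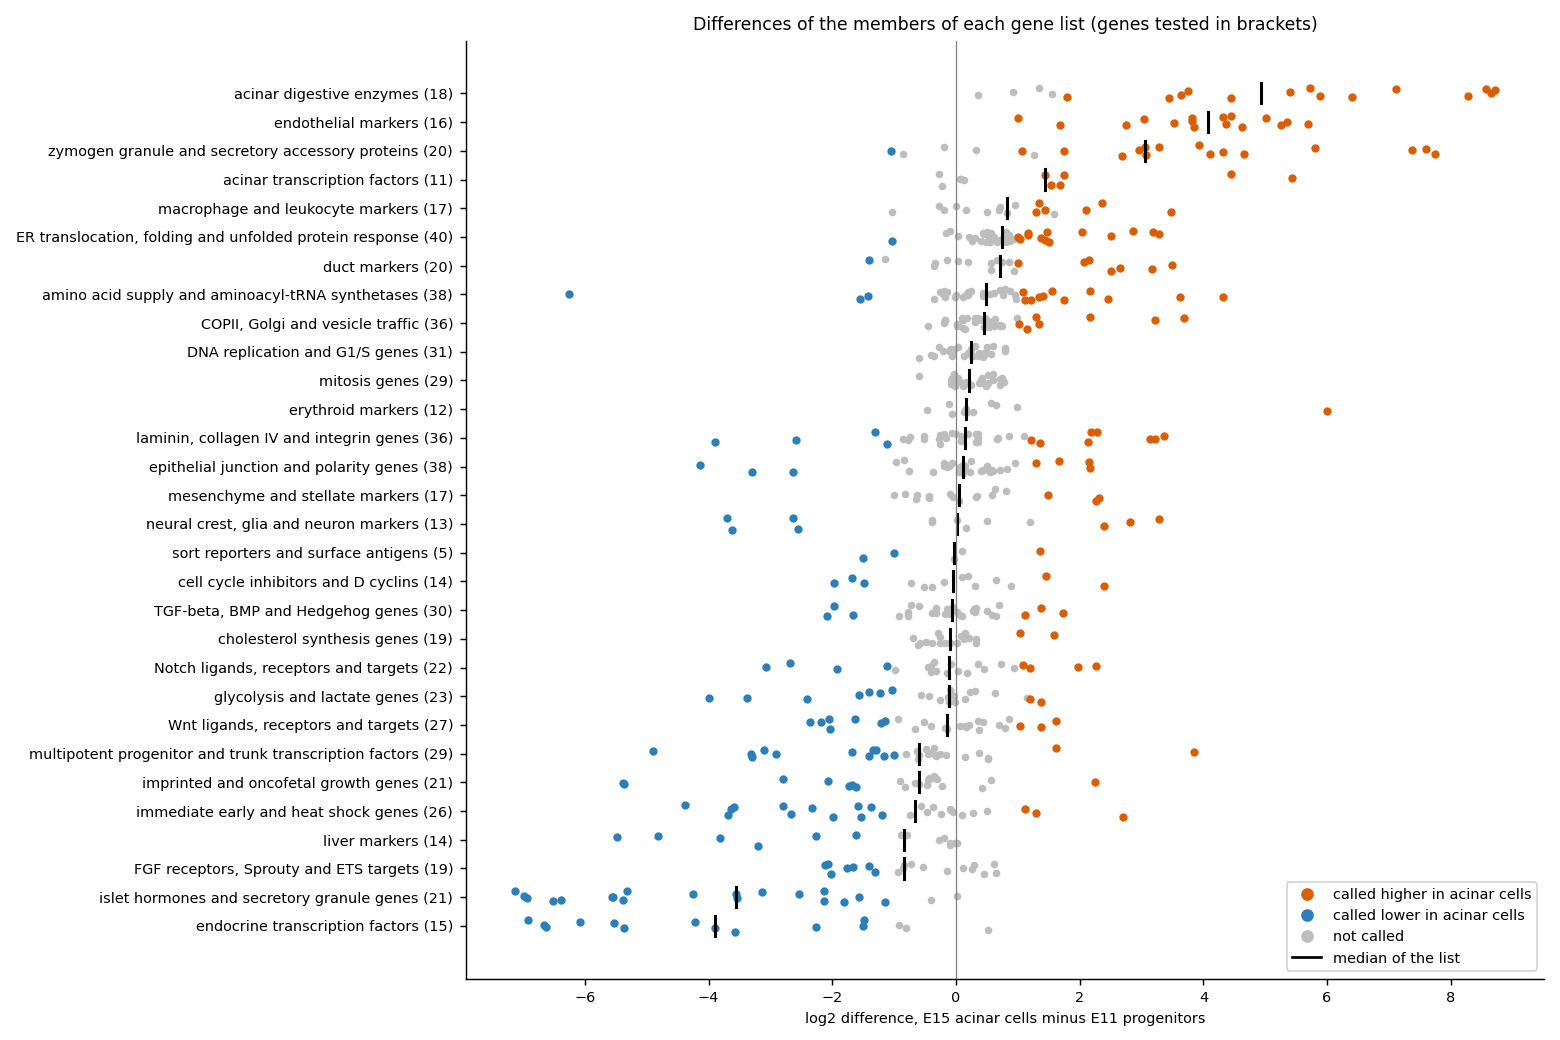
Log2 difference, E15 acinar cells minus E11 progenitors, of each gene tested in 30 lists, with called genes in colour and the median of the list as a black line. Enzymes, endothelial markers and granule accessory genes have the highest medians (4.93, 4.08 and 3.06), endocrine factors and hormones the lowest (-3.89 and -3.56), and no replication or mitosis gene is called.

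Signals of some other cell types moved with the groups. All 16 endothelial markers tested were higher in acinar cells, with a median of 4.08, where 8.42% of all genes rose. Erg, a vascular ETS factor, was at the 2-fold limit, at 1.01, and was not called without replicate 2 or 4 of the E11 arrays (0.99 and 0.95) or replicate 2 of the acinar arrays (0.82). Emcn, endomucin, read 3.37, 3.50, 2.94 and 3.57 at E11, 3.52, 4.06 and 3.66 in E15 progenitors and 8.49, 9.64 and 8.99 in acinar cells, a difference from E11 of 5.69 (SE 0.56, adjusted p 7.3e-11). Tek, the angiopoietin receptor, was 5.35 higher, Plvap, of endothelial fenestrae, 5.26, Robo4 5.01 and Cldn5, of vascular tight junctions, 4.44. The mean of the list per array was 8.34 to 9.39 in acinar cells, 4.75 to 5.09 in E11 progenitors and 5.05 to 5.51 in E15 progenitors. Replicate 2 was the highest acinar array and replicate 1 the lowest, and all acinar arrays lay above all others. In E11 progenitors 1 gene mean of the 16 lay above the floor, and all 16 acinar means did.

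Of the 15 genes with the largest rise, some are known from vessels and not from acini. Aplnr, the apelin receptor of endothelial cells, read 4.56, 3.61, 3.27 and 3.44 at E11, 3.49, 3.65 and 3.33 in E15 progenitors and 12.16, 12.47 and 12.19 in acinar cells, a difference of 8.55 (SE 0.56, adjusted p 9.1e-16). Fabp4, a fatty acid carrier of capillaries and fat, was 7.19 higher than at E11 and Cav1, the coat protein of caveolae, 6.57 higher. For both, the E15 progenitor arrays stayed near those of E11, at 3.70 to 3.89 for Fabp4 and 5.11 to 6.83 for Cav1. Procr, the protein C receptor, was 6.62 higher and Clca3a1 7.24 higher, but these 2 were also raised in E15 progenitors, at 7.01 to 9.81 and 10.16 to 10.59. Sox17, itself on the endothelial list, read 7.23, 8.37 and 7.71 in acinar cells. The basement membrane nidogens rose too, Nid1 by 3.21 (or 2.02 with the mean of its probe sets) and Nid2 by 3.36. Sox17, Nid1 and Nid2 were lowest in replicate 1 and highest in replicate 2 of the acinar arrays. Cdh5, a cadherin of vessels, was highest in replicate 3 instead (7.22, 7.66 and 8.04). CD49f, the antigen of the gate, is known from several epithelia and from vessels. Whether vascular cells in the sort account for any of these values was not tested. The 15 also held 2210010C04Rik, a trypsinogen-like gene, 7.08 higher, or 4.57 with the mean of its probe sets.

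Of 36 laminin, collagen IV and integrin genes, 8 rose and 4 fell, where 8.42% of all genes rose and 11.9% fell. The share that fell was near that of all genes. Lama4, the vascular laminin chain, rose by 3.13 and Itgb4, the hemidesmosome integrin, by 2.28, while Itgb8 fell by 3.89, Lama1 by 2.58, Itga9 by 1.31 and Lamb2 by 1.11. Itga6, the gene of CD49f, rose by 1.36, Prom1, the gene of CD133, differed by 0.10 and Cd24a by -0.03, and as genes of the sort they are no finding. Of 17 macrophage and leukocyte markers, 6 rose, C1qa by 3.47 (10.09, 9.73 and 10.01 in acinar cells), Mrc1 by 2.36, C1qb by 2.1, Cd14 by 1.44, Tyrobp by 1.35 and Fcer1g by 1.29, while 12 of the 17 had acinar means at or under the floor and Adgre1 (F4/80) read 3.71 to 4.29. Without replicate 1 of the acinar arrays 3 of the 17 were called, and C1qb, Tyrobp and Fcer1g were not, at 1.60, 1.15 and 1.11. Tyrobp was also not called without replicate 3 or 4 of the E11 arrays or replicate 2 of the acinar arrays, at 1.30, 1.24 and 1.26. Of 17 mesenchyme markers, Col3a1, Col1a1 and Dcn rose, by 2.32, 2.27 and 1.49. None fell and 14 were not called, with a list median of 0.05. Dcn was not called without replicate 3 of the acinar arrays, at 1.13. The methods state that blood cells were excluded from the sorts by Ter119 and CD45. Of 12 erythroid markers, Hbb-b2, an adult beta globin, rose by 6.0, with acinar arrays of 11.26, 10.45 and 8.64, or by 3.59 with the mean of its probe sets. The others were not called, so the share that rose was near that of all genes (8.42%), and the list median was 0.17. Hba-x, an embryonic globin, read 8.44 in replicate 2 of the E11 arrays and 4.63 to 4.71 in the others.

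Of 14 liver markers, 6 fell in acinar cells, none rose and 8 were not called, where 11.9% of all genes fell. Fgg, a fibrinogen chain, read 10.10, 10.07, 10.14 and 10.20 at E11 and 4.72, 4.76 and 4.48 in acinar cells, a difference of -5.48 (SE 0.76, adjusted p 2.1e-07), and Serpina1b, an antitrypsin, differed by -4.82. Afp, which is also on the oncofetal list, differed by -1.61. The mean of the liver list was 7.92 to 8.24 in E11 arrays, 6.20 to 6.43 in E15 progenitor arrays and 6.20 to 6.53 in acinar arrays. Neural markers split, with 4 of 13 lower, 3 higher and a median of 0.02, where 11.9% of all genes fell and 8.42% rose. Elavl4, Tubb3, Dcx and Elavl3 fell, by 3.70, 3.62, 2.64 and 2.55, genes that endocrine cells share with neurons, while Ednrb, S100b and Ret rose, by 3.29, 2.81 and 2.39. The mean of all probe sets of Ednrb differed by 2.05. S100b was higher still in E15 progenitors, where every array read 10.64 or more.

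Immediate early genes separated the acinar arrays from each other. Of 26 genes, 12 fell and 3 rose by limma, where 11.9% of all genes fell and 8.42% rose. The methods' t-test on the 7 arrays called 8 lower and 3 higher. Fos read 12.79, 13.45, 13.32 and 13.06 at E11, 13.50, 13.50 and 13.92 in E15 progenitors and 4.46, 12.55 and 9.33 in acinar cells, a difference from E11 of -4.38 (SE 0.75, adjusted p 9.3e-06). The 3 acinar arrays span most of the scale, and the methods' t-test on the 7 arrays gave an adjusted p of 0.12. Without replicate 1 of the acinar arrays Fos differed by -2.22 and was called. Atf3 differed by -3.59, Fosb by -3.68 and Egr2 by -3.63, each with replicate 2 the highest acinar array. Without replicate 1 of the acinar arrays, Egr2 differed by -2.46 and Egr3 by -2.40, and neither was called. Egr3 was also not called without replicate 2 or 4 of the E11 arrays or replicate 3 of the acinar arrays, at -2.73, -2.67 and -2.45. Gadd45b, Hspb1 and Ier3 rose, by 2.70, 1.30 and 1.11, and Junb and Jund differed by -0.04 and -0.08. The mean of the list was 9.76 to 10.30 in E11 arrays, 10.79 to 11.10 in E15 progenitor arrays and 8.19 to 10.00 in acinar arrays. Digestion of the tissue is known to induce these genes, the enzymes used for digestion differed between the sorts, and the part of digestion in these values was not tested.

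**Figure D5:**
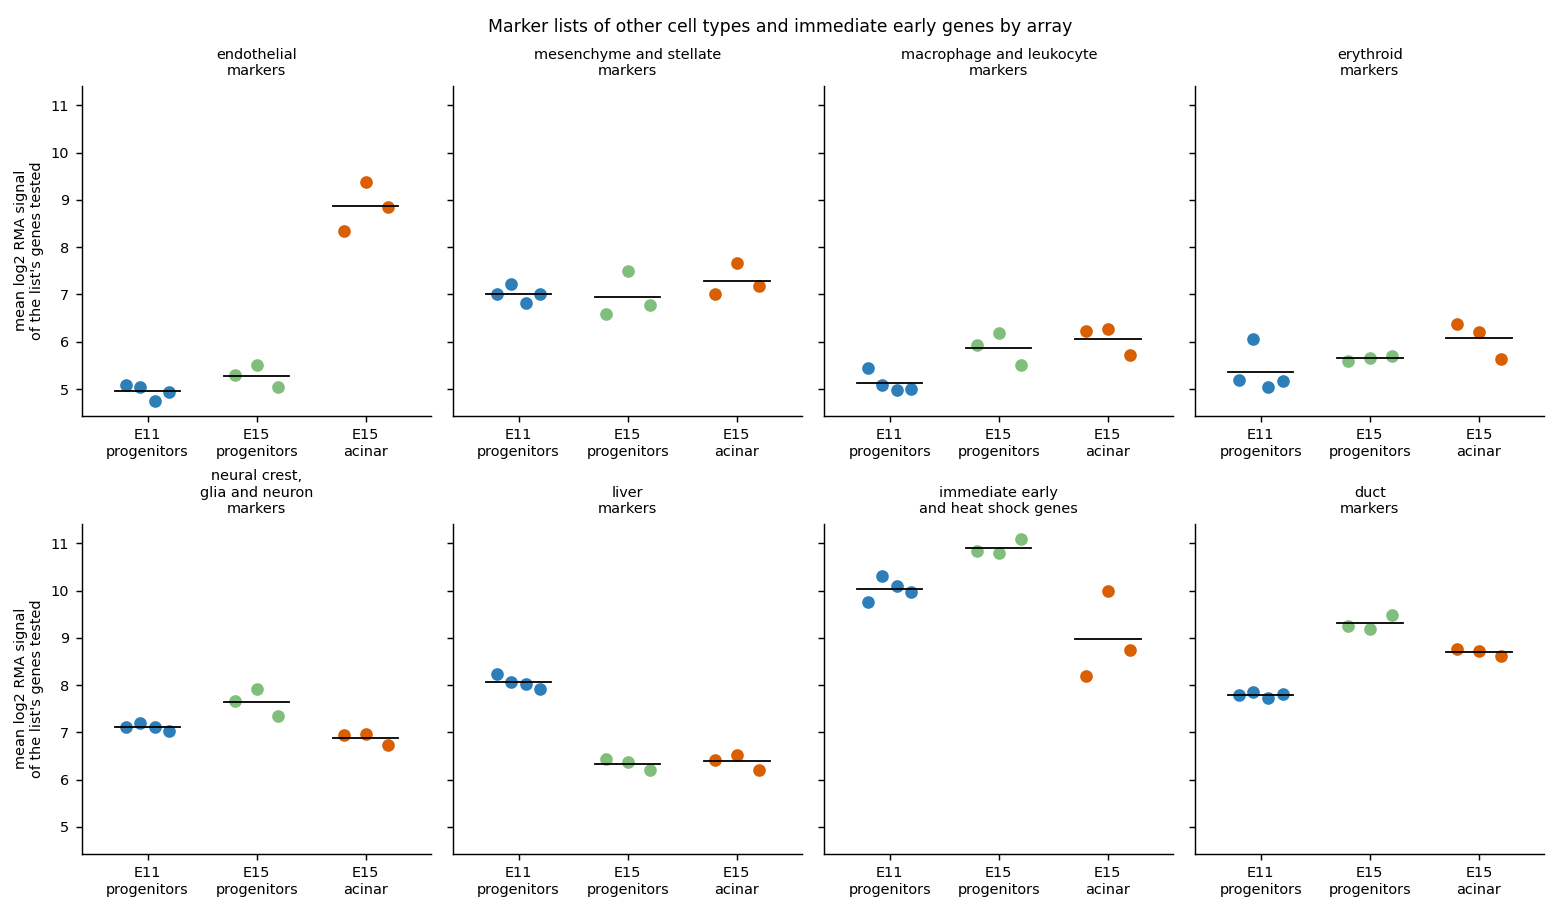
Mean RMA signal (log2) of the tested genes of 8 marker lists in each array, by group, with the group mean as a line. Endothelial markers are high in the 3 acinar arrays alone (8.34 to 9.39), liver markers in the 4 E11 arrays (7.92 to 8.24), and immediate early genes differ among the acinar arrays (8.19 to 10.00).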

How the data were processed

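Gene expression of sorted mouse pancreas cells was measured on Affymetrix whole-genome mouse arrays after RNA isolation with PicoPure and NuGen amplification. The authors normalized all 48 arrays by RMA in R 2.11.1, and the deposited values are log2 signals per probe set. Test columns were not used here, and no per-sample column was left unmapped. Members, gene lists and tests were chosen with earlier results of these data known. Probe sets above a linear signal of 100 (6.64 on the log2 scale) in at least 1 of the 48 arrays were kept, 32078 of 45101. All 48 arrays in 13 populations entered 1 linear model with empirical Bayes moderation in limma 3.58.1 under R 4.3.3 (35 residual degrees of freedom), as the spread is then shared. A probe set or gene was called at a Benjamini-Hochberg adjusted p of 0.05 and a log2 difference of at least 1, over all probe sets tested. Of the probe sets, 34958 carried 1 gene symbol, 932 several and 9211 none, and the probe set with the highest mean over the arrays stood for a gene. Named genes are all members of the enzyme, acinar factor, progenitor factor and sort lists, the top 15 risers and the top 15 fallers by size among called genes whose arrays did not overlap, and from other lists up to 6 called members with the largest and 2 members with the smallest difference. Arrays give no counts, so precision rests on the 4 and 3 arrays for the means and on all 48 arrays for the spread. On simulated data for this comparison, with 32078 probe sets, 84% of differences of 1.5 and 100% of those of 2, 3 and 4 were called, with 6 false calls among 31878. The simulated noise was independent between arrays, with the same SD in all populations, so these rates need not hold for the real arrays. Alternatives were other sets of arrays, scalings, filters, thresholds, probe choices and the methods' t-test. Promoter windows came from RefSeq on GRCm38.p6, where 23 of 29 enzyme and 9 of 12 acinar factor genes had an entry, and 10 of 32851 windows with other letters were left out.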

Additional observations from a re-analysis of the deposited data

Results flagged for a closer look

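Among groups of 4 to 10 samples, a sample can be compared with the rest by its gap to the nearest other sample over the range of the group (Dixon's ratio, taken at its 95% critical value for 4 samples). Only the E11 progenitors have 4 arrays here. Of 289 values, 16 (5.54%) passed, where chance gives about 1 in 20. Replicate 1 stood apart in 2 of them, replicate 2 in 5, replicate 3 in 6 and replicate 4 in 3.

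Replicate 2 was highest for Hba-x, an erythroid marker, and for the mean of the list that holds it. Hba-x read 8.44 there and 4.63 to 4.71 in the others (ratio 0.979), and the mean of the erythroid markers was 6.05 against 5.05 to 5.19 (0.857). The same array was highest for Sfrp5 (7.96, 0.954), Clps (12.47, 0.915) and the mean of glycolysis and lactate genes (10.82, 0.862), by smaller steps.

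Replicate 3 was highest for the mean of the endocrine transcription factors, at 10.36 against 10.09 to 10.11 (0.915). It was also highest for the list members Neurod1, at 12.04 against 11.52 to 11.57 (0.897), and St18, at 10.13 against 9.50 to 9.59 (0.856). It was lowest for 2210010C04Rik (4.07, 0.933), Lama1 (9.18, 0.898) and Phox2a (3.89, 0.870).

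Replicate 4 was lowest for Bmp4 (6.75, 0.917) and Dll3 (6.90, 0.846) and highest for Mycn (10.63, 0.843). Replicate 1 was lowest for Insig1 (10.69, 0.903) and highest for Pdia2 (5.62, 0.879). The steps in the enzymes, factors and hormones were small beside their differences between the groups, and those in Mycn were not.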

How the results depend on the processing

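Of the 180 named genes that were called, 165 were called when any 1 array was left out, 178 under both rescalings and 115 under all 22 alternatives, the stricter limits included. Over 5631 pairs of a named gene and an alternative, 5468 kept their side of the threshold, 134 were no longer called, 28 became called and 1 reversed. The 5468 include 132 pairs that changed sign but were called neither before nor after. The reversal of a called gene was Egr3, at 0.46 with the probe set of highest mean over the 7 arrays, so its fall rests on 1 of its probe sets. The methods' t-test on the 7 arrays without a limit on size gave 15568 probe sets (6834 higher and 8734 lower) and 7593 genes (3470 and 4123). A log2 difference of at least 2 left 1814 probe sets (710 higher and 1104 lower) and 1049 genes (421 and 628). Leaving out 1 array gave 5712 to 6150 probe sets. The replicate numbers were not taken as pairs. Correlations of same-numbered deviations were -0.02, 0.15 and 0.26, and those of different numbers ran from -0.30 to 0.21. So few values cannot settle whether the samples were paired. With the replicate number as a block on the 7 arrays, 6316 probe sets were called. Signals at or under the floor limit the sizes, with 999 called genes there in acinar cells and 709 in E11 progenitors.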
